A study of Oryza sativa with 15 samples.

Results

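The 102 genes described here were those with at least 1 differentially methylated region (DMR) in each of 3 rice lines when every line was set against the wild type. They were chosen by the gene ID in the deposited DMR lists, and so by the methylation levels from which those regions had been called. The feature ending of the ID (upstream, exon or intron) was removed first. The genes made up 1.93% of the 5284 genes with a DMR in any list. Another 715 genes (13.5%) had DMRs in 2 of the lists, and 4467 (84.5%) in 1 list. All 331 regions listed for the 102 genes, at 212 different positions, entered the counts below, and only some of them are described singly. A region was called hyper when the mean level of a line was above that of the wild type and hypo when it was below.

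DNA methylation had been measured by whole-genome bisulfite sequencing (WGBS) in 10-day-old seedlings of 4 groups with 3 libraries each. WYJ7 was the untransformed wild type, the japonica cultivar wuyujing 7, and CK was WYJ7 regenerated from callus without a transgene and sampled as T0 plants from 3 independent calli. The line *pOsNAR2.1-OsNAR2.1*, below called the transgenic line, was homozygous in T4 and carried *OsNAR2.1*, a partner of high-affinity nitrate transporters, under its own promoter, after hygromycin selection. SDWT, labelled FP in the deposited data, was the transgene-free T4 sister of that line, segregated from the same heterozygous T0 plant. All the groups other than WYJ7 thus shared passage through callus culture, and SDWT and the transgenic line also shared transformation and selection. SDWT and the transgenic line are each a single line, and all of the 3 lists used the same 3 WYJ7 libraries, so shared regions between lists are not independent of each other.

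In plants, methyl groups are added to cytosines in CG, CHG and CHH contexts (H is any base but G), and CG methylation is copied to the new strand at each cell division. Methylation upstream of a gene is often linked to silencing, while CG methylation in the body of a gene is common in genes that are expressed. Callus culture is known to change DNA methylation in rice, and some changes are passed on through seed. The level of a region is the share of methylated reads at its cytosines, in percent, as a mean over these cytosines. In the deposited lists the regions had at least 3 CpGs by the count given there, and how many reads stand behind a level is not given. That count was 6 for a region of 8 bp upstream of OS01G0744550, more than the CG pairs that such a width can hold. Numbers of CpGs are therefore given below as listed, and cannot all be counts of CG sites. RNA was not part of these lists, so the values say nothing of the expression of the genes.

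The genes were spread over all 12 chromosomes, from 2 on chromosome 8 to 15 on chromosome 2. Most had a single region in each list: 83 genes had 3 regions in total, 13 had 4 and 6 had 5. Of the IDs, 34 (33.3%) were of the EPlOSAG series and 68 were OS loci, while EPlOSAG IDs made up 39.8% of all genes with a DMR. None of the 102 IDs could be matched to a gene symbol or product in the reference table used, so the genes are described by ID and position with no function.

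Upstream windows, which reached at most 2002 bp, held most of these regions. In 81 genes every region was upstream, in 8 every region was in an exon, and in 5 every region was in an intron. The others combined features: 5 genes had exon and upstream regions, 2 had intron and upstream regions, and 1 had all of them. By list, 85.6% of the CK regions, 82.1% of the SDWT regions and 82.5% of the transgenic-line regions of these genes were upstream, against 75.1%, 79.7% and 76.5% of all listed regions with a gene. Intron regions took 6.31%, 5.66% and 7.02%, against 15.4%, 11.6% and 14.4% of all.

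Regions were short. The median region of these genes had 4 CpGs in every list, and widths ran from 7 to 527 bp in CK, from 4 to 101 bp in SDWT and from 5 to 308 bp in the transgenic line. The regions were in CpG context except 1 in CK and 1 in the transgenic line, both at the same place upstream of EPlOSAG00000006395 (chr1:12889004-12889021), which were listed as CpH. There the level was 13%, 27% and 23.8% in the WYJ7 libraries and was listed at 0 in all libraries of both lines.

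In CK, 48 of 111 regions of these genes (43.2%) were hyper, where 30.7% of all listed CK regions with a gene were hyper. In SDWT the count was 58 of 106 (54.7%), against 53.0% of all. In the transgenic line it was 83 of 114 (72.8%), against 78.3%, and 1 region had equal means. Direction came from the same levels by which regions were called, and these shares are a description.

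The regions of the 3 lines had differences of like size. Over the hyper regions, the mean level was 41.2% ± 3.16 in WYJ7 and 68.5% ± 1.85 in CK, 40.1% ± 2.15 and 68.6% ± 1.98 for SDWT, and 39.7% ± 2.25 and 70.9% ± 1.64 for the transgenic line (SD over 3 libraries, here and below). Over the hypo regions, it was 47.5% ± 1.32 in WYJ7 and 19.3% ± 3.28 in CK, 44.4% ± 1.84 and 17.6% ± 1.40 for SDWT, and 40.7% ± 2.72 and 17.1% ± 1.02 for the transgenic line. The median absolute difference was 26.6, 26.1 and 26.9 percentage points in CK, SDWT and the transgenic line, close to the medians over all listed regions with a gene (27.7, 27.5 and 27.1).

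The 3 WYJ7 libraries and the 3 libraries of the line did not overlap in 75 of the CK regions (67.6%, against 61.0% of all listed regions with a gene), 70 of the SDWT regions (66.0%, against 70.8%) and 90 of the transgenic-line regions (78.9%, against 75.5%). A stricter count took regions in which each library of the line was at least 20 points from the WYJ7 mean, on the side of the line's mean. This was so in 45 CK regions (40.5%, against 31.0% of all listed regions with a gene), 51 SDWT regions (48.1%, against 45.5%) and 65 regions of the transgenic line (57.0%, against 47.0%). In CK, replicate 2 stood apart from the other libraries: it alone failed to reach 20 points in 22 regions, while replicate 1 alone failed in 8 and replicate 3 alone in 5. Over the hypo regions its mean level was 23.1%, above the 17.3% and 17.6% of replicates 1 and 3. In SDWT, replicate 1 alone failed in 12 regions, against 7 and 5 for replicates 2 and 3. In the transgenic line, replicate 2 alone failed in 14 regions, against 7 and 5 for replicates 1 and 3. These counts by replicate cover only the regions of these genes, and whether they hold over the whole lists was not examined.

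The WYJ7 level of these genes was in most regions in the middle of the range. The comparison with all listed regions is a description, since the same levels were used to call them. Its mean was between 20% and 80% in 71.2%, 72.6% and 72.8% of the CK, SDWT and transgenic-line regions of the 102 genes, while the shares over all listed regions with a gene were 46.5%, 54.6% and 56.5%. The lines showed the opposite: a mean between 20% and 80% was found in 42.3%, 46.2% and 37.7% of these regions, and in 71.7%, 59.4% and 55.8% of all. The median SD of the WYJ7 libraries was 9.01, 11.7 and 10.4 points in regions of these genes and 5.56, 8.30 and 6.93 over all. For the lines it was 8.67 points in CK, 5.02 in SDWT and 4.83 in the transgenic line, against 14.7, 8.04 and 7.24. Regions where all 3 libraries of a line were at 0 entered these medians with no spread, and their shares are given below. In the plot of line level against WYJ7 level, few points lay near the diagonal, which the calling of regions by this same contrast favours.

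**Figure D1:**
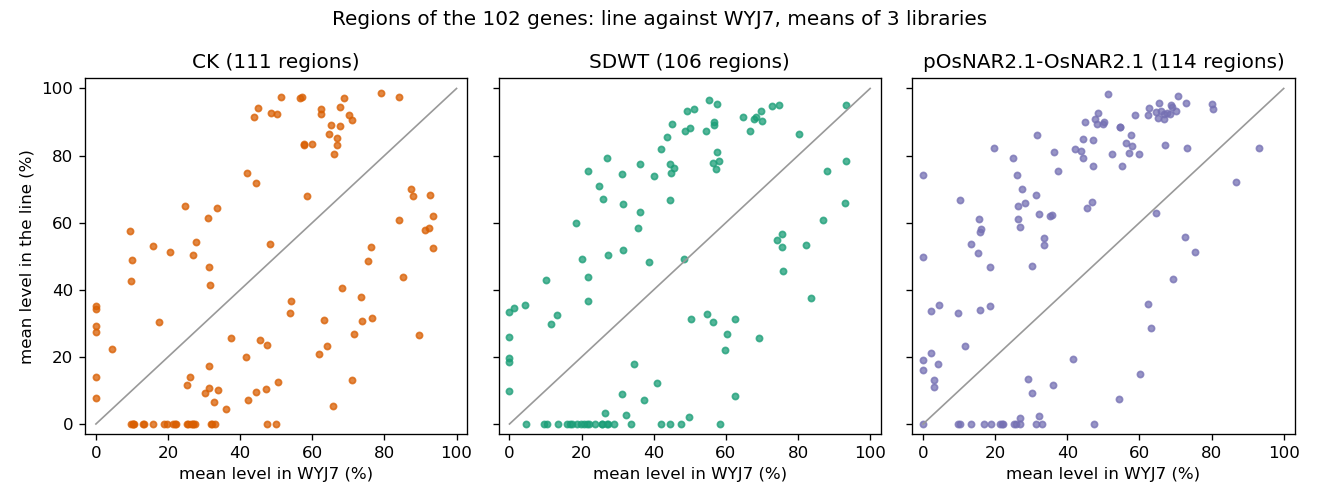
Mean methylation level (%) of each region of the 102 genes in WYJ7 (x axis) and in the line (y axis), with 1 point per region, in CK (111 regions), SDWT (106) and the transgenic line (114). Each mean is over 3 libraries, and the grey diagonal marks equal levels; points above it are hyper, and a row of points at 0 in the line is seen in all 3 panels.

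A level of exactly 0 was common. All 3 libraries of the line were listed at 0 in 23 CK regions (20.7%), 23 SDWT regions (21.7%) and 15 transgenic-line regions (13.2%) of these genes, against 6.88%, 11.5% and 6.71% of all listed regions with a gene. Over all 3 lists, 50 of 11392 regions had 0 in all 6 of their libraries, 1 of them in an intron of OS01G0249200 (chr1:8204747-8204773, in the list of the transgenic line), so a 0 in the files cannot be told from a level that was not estimated. Such values are called "listed at 0" below.

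Fewer than 20 points separated the means in 30 CK regions (27.0%, against 22.2% of all listed regions with a gene), 26 SDWT regions (24.5%, against 23.5%) and 28 transgenic-line regions (24.6%, against 27.1%). In 5 of the 331 regions the difference was under 5 points. These 5 genes are named here after their values were seen. The SDWT region of EPlOSAG00000017257 (chr7:7336670-7336699) had 61%, 27.8% and 56.3% in WYJ7 and 37%, 53.4% and 57.6% in SDWT. In the SDWT region of EPlOSAG00000051479 (chr3:16119383-16119406) the levels were 91.7%, 93.3% and 94.6% in WYJ7 and 98%, 89.6% and 97.4% in SDWT. The intron region of OS06G0351500 in the transgenic line (chr6:14289945-14289996) had 74.3%, 63.1% and 56.6% in WYJ7 and 65.6%, 63.3% and 59.6% in the line. In these the libraries of the groups overlapped, and the listed levels alone do not show a change. The remaining 2 were the OS01G0249200 region at 0 throughout and an SDWT region of EPlOSAG00000052088 (chr4:19488836-19488844), where only WYJ7 replicate 1, at 13.8%, was above 0.

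Of the 102 genes, 54 (52.9%) had the same direction in every region of all 3 lines. In 34 genes all regions were hyper, and in 20 all were hypo. In 15 genes the transgenic line was hyper while CK and SDWT were hypo, and the reverse, the transgenic line alone hypo, was found in 0 genes. CK was the odd line in 14 genes, hypo in 13 of them and hyper in 1. SDWT was the odd line in 15, hyper in 7 and hypo in 8. Over all listed regions with a gene, the hyper share was 30.7% in CK, 53.0% in SDWT and 78.3% in the transgenic line. The whole lists of CK and the transgenic line thus lean the same way as their odd-line counts, while SDWT was close to even in both. The last 4 genes (OS01G0249200, OS02G0116400, OS02G0216300 and OS10G0406701) had regions of unlike direction, or with no difference, within 1 line. Because the same WYJ7 libraries enter all 3 lists, the directions of a gene are not independent, and none of these counts was tested.

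**Figure D2:**
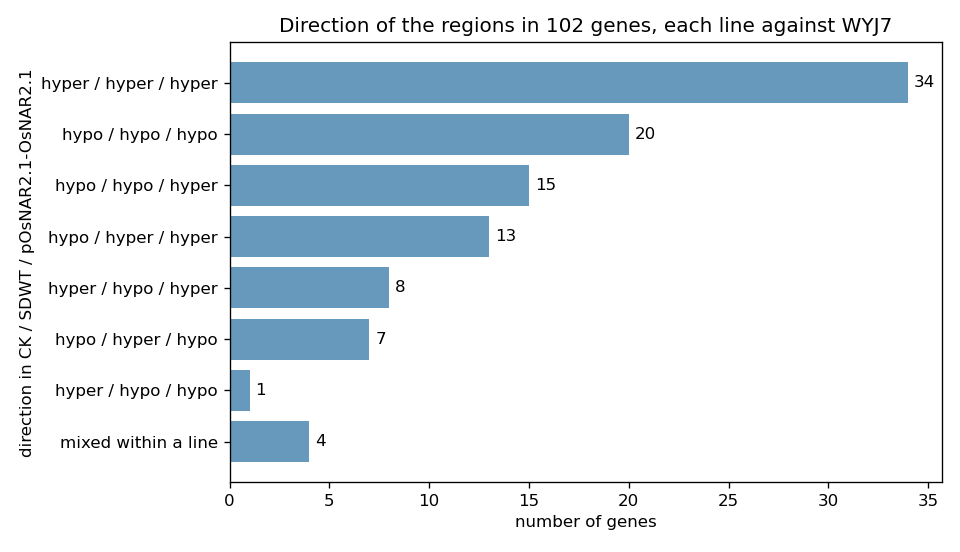
Number of the 102 genes (x axis) by the direction of their regions in CK, SDWT and the transgenic line, each against WYJ7 (y axis). All hyper (34 genes) and all hypo (20) were the most frequent, and the bar of 4 holds genes with unlike directions, or with no difference, within a line.

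The lines did not only share the gene but mostly the place. In 97 of the 102 genes (95.1%) the regions of at least 2 lines overlapped by 1 bp or more, and in 59 (57.8%) the regions of all 3 lines did. For the genes listed in exactly 2 lines, the same place was hit in 509 of 715 (71.2%). A gene in 3 lists has more pairs of lines that can meet than a gene in 2 lists. The 95.1% and the 71.2% are therefore not like measures, and do not show that place was shared more often in these genes. Of the 59 places common to 3 lines, 52 were upstream, 6 in an exon and 1 in an intron, and 21 belonged to EPlOSAG IDs. Direction was the same in all lines at 40 of the 59 (67.8%), with 24 hyper and 16 hypo. CK and SDWT were hypo and the transgenic line hyper at 8, CK alone was hypo at 6, SDWT alone was hypo at 4 and SDWT alone was hyper at 1. The means were at least 20 points apart in all 3 lines at 33 places (55.9%).

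Where 2 lines but not all 3 met, in 38 genes, SDWT and the transgenic line overlapped in 19 genes, CK and the transgenic line in 14 and CK and SDWT in 9, with 4 genes counted under more than 1 pair. The direction was the same in 15 of the 19, 11 of the 14 and 8 of the 9.

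At 37 of the 59 places the start and the end were identical in the 3 lists, which allowed the 12 libraries to be compared over the same coordinates. The number of CpGs given for such a region could still differ by list. WYJ7 means were between 20% and 80% at 28 of these 37 regions (75.7%), below 10% at 2 and at or above 80% at 0. In CK, 16 means were below 10% and 11 were at or above 80%, in SDWT 16 and 9, and in the transgenic line 9 and 15. WYJ7 had a median SD of 13.7 points, against 2.90 for CK, 4.89 for SDWT and 4.21 for the transgenic line, and the SD of WYJ7 was the largest of the 4 at 22 of 37. Where all 3 libraries of a line were listed at 0, its SD was 0 and entered these figures. The SDs therefore do not show that WYJ7 varied more than the lines. At most of these regions the lines overlapped one another: all CK libraries lay below all SDWT libraries at 6 and above them at 3. Against the transgenic line, all CK libraries were below at 10 and above at 2, and all SDWT libraries were below at 10 and above at 1. Lines that were both listed at 0 counted as overlapping. For these regions, here and below, counts of libraries without overlap have no share over all listed regions beside them and are a description.

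**Figure D3:**
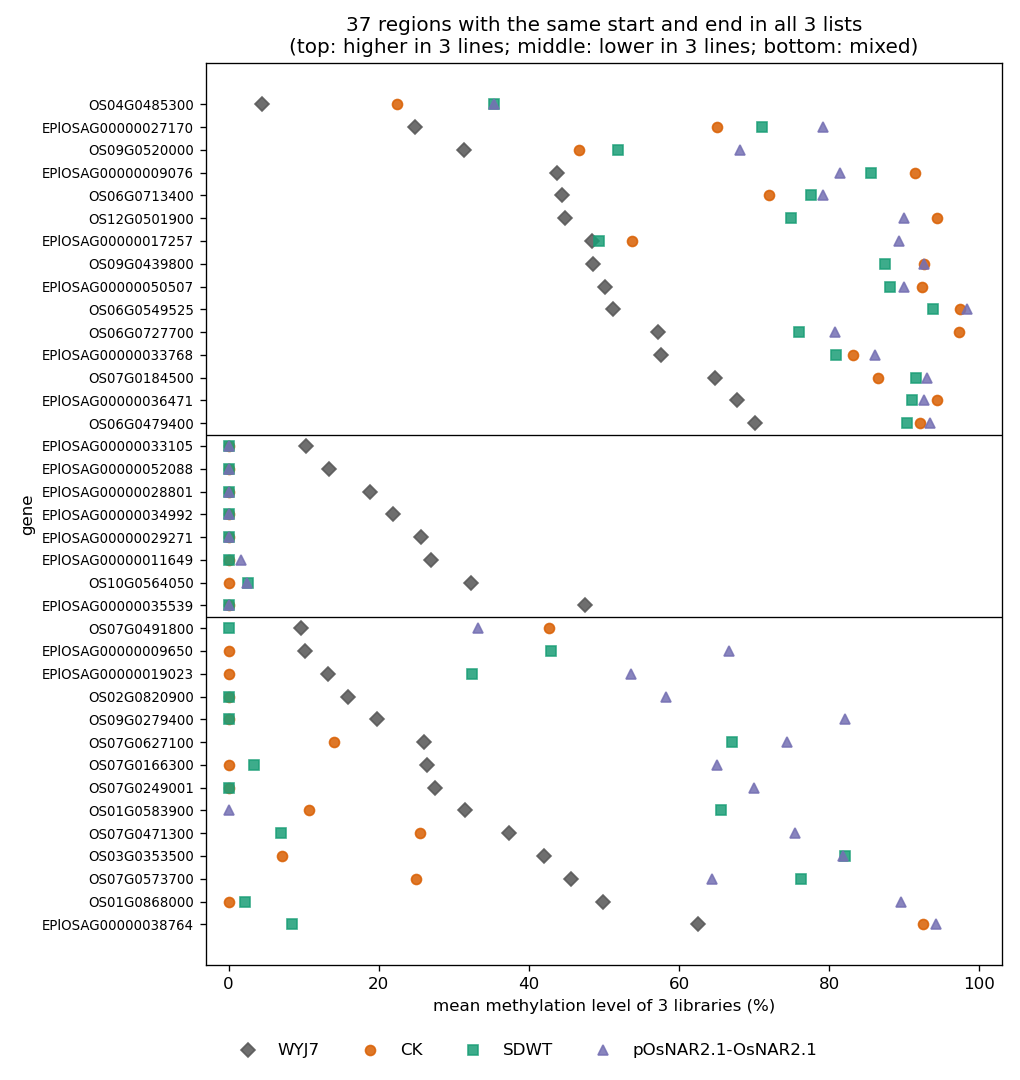
Mean methylation level (%) of 3 libraries (x axis) in WYJ7, CK, SDWT and the transgenic line at the 37 regions with the same start and end in all 3 lists (y axis, by gene). In the top block (15 regions) the lines are above WYJ7, in the middle block (8) they are at or near 0, and in the bottom block (14) they lie on both sides of WYJ7.

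Among the 15 regions that were hyper in all lines, the median of the WYJ7 means was 48.5%, against 91.5% in CK, 80.9% in SDWT and 89.3% in the transgenic line. The means of the 3 lines were close together, with a median range of 7.25 points and extremes of 2.94 and 40.0. At 9 of the 15 all the line libraries were above every WYJ7 library. The lowest WYJ7 mean was 4.41%, in the upstream region of OS04G0485300 (chr4:24260766-24260781). There WYJ7 had 0%, 5.73% and 7.5%, CK 20.9%, 17% and 29.5%, SDWT 37.3%, 42.5% and 26.5% and the transgenic line 20.6%, 33.7% and 51.8%.

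OS06G0549525 had line levels near the top of the scale. Its upstream region (chr6:20805974-20805992, 4 CpGs) had 54.2%, 61.2% and 38.3% in WYJ7. The levels were 95%, 98.8% and 98.2% in CK, 100%, 98.8% and 82.8% in SDWT and 100%, 97% and 97.9% in the transgenic line. All 9 line libraries were above the 3 WYJ7 libraries, which themselves ranged over more than the lines did.

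OS09G0439800 was of the same kind. In its upstream region (chr9:16311232-16311253) the levels were 52.2%, 33.3% and 60.01% in WYJ7 and 94.6%, 86.5% and 96.8% in CK. They were 95.4%, 88.3% and 78.6% in SDWT and 84.3%, 100% and 93.7% in the transgenic line. The line means were 92.6% ± 5.45, 87.4% ± 8.42 and 92.7% ± 7.92, and no line library reached down to the WYJ7 range.

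EPlOSAG00000009076 showed a gradual order. Upstream of it (chr10:22969696-22969710, 3 CpGs) WYJ7 had 25.9%, 53.4% and 51.8%. The means were 91.5% ± 4.56 in CK, 85.5% ± 3.81 in SDWT and 81.5% ± 5.34 in the transgenic line. CK libraries were all above those of the transgenic line (95.2%, 86.4% and 92.8% against 75.4%, 85.5% and 83.6%), while SDWT (87%, 81.2% and 88.3%) overlapped both.

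In EPlOSAG00000050507 the shared region lay across the end of an exon (chr8:19942109-19942123). WYJ7 had 67.8%, 51.5% and 31%, CK 93.6%, 89% and 94.4%, SDWT 83.8%, 84.8% and 95.8% and the transgenic line 90.1%, 94.1% and 85.7%. The WYJ7 SD was 18.4 points, and the levels of the lines were 83.8% or more in every library.

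OS06G0713400 had a smaller separation. WYJ7 was at 59.6%, 45.9% and 27.7% in its upstream region (chr6:30231314-30231334). CK had 81.7%, 61.1% and 73%, SDWT 84%, 63.6% and 85.2% and the transgenic line 65.7%, 89.4% and 82.3%. The lowest library of CK was only just above the highest of WYJ7.

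In OS12G0501900 a single WYJ7 library decided the overlap. Its upstream region (chr12:19117523-19117536) had 83.5%, 33.8% and 17.3% in WYJ7 (SD of 34.5 points). CK had 94.8%, 91.2% and 96.9%, SDWT 52.3%, 75.5% and 96.7% and the transgenic line 92%, 99% and 78.8%. WYJ7 replicate 1 was above SDWT replicates 1 and 2 and above replicate 3 of the transgenic line, whereas replicates 2 and 3 of WYJ7 were below every line library.

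WYJ7 was also uneven upstream of EPlOSAG00000027170 (chr9:20107251-20107284), with 0%, 15.4% and 59.1%. CK had 77.2%, 78% and 40.05%, SDWT 75.9%, 73.4% and 63.7% and the transgenic line 85.7%, 75.8% and 76.1% there. WYJ7 replicate 3 was above CK replicate 3 and below all other line libraries. A separate upstream region, called only in the transgenic line (chr9:20107106-20107166, 8 CpGs), was at 70.6% ± 4.43 in WYJ7 and 97.8% ± 1.3 in the line.

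The 8 regions that were hypo in all lines looked different from the hyper ones. Their WYJ7 means ran from 10.4% to 47.4%, with a median of 23.8%, and no line mean was above 2.61%. In 6 of the 8 all 9 line libraries were listed at 0, and in 7 every line library was below every WYJ7 library. All but OS10G0564050 had EPlOSAG IDs.

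EPlOSAG00000035539 had the highest WYJ7 level of this kind. Upstream of it (chr6:24446263-24446278, 3 CpGs over 16 bp) the WYJ7 libraries had 53%, 42.3% and 47%, and all 9 line libraries were listed at 0. In the upstream region of OS10G0564050 (chr10:22278125-22278137) WYJ7 had 24.3%, 30.5% and 42% and CK was listed at 0 throughout, while SDWT had 0%, 7.84% and 0% and the transgenic line had 0%, 0% and 7.29%. WYJ7 was uneven upstream of EPlOSAG00000029271 (chr4:31674994-31675005), at 9.57%, 15.7% and 51.8%, with 0 listed in every line library. For EPlOSAG00000033105 (chr9:9372092-9372111) WYJ7 replicate 1 was itself listed at 0, beside 19.7% and 11.4%, so the groups touched.

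**Figure D4:**
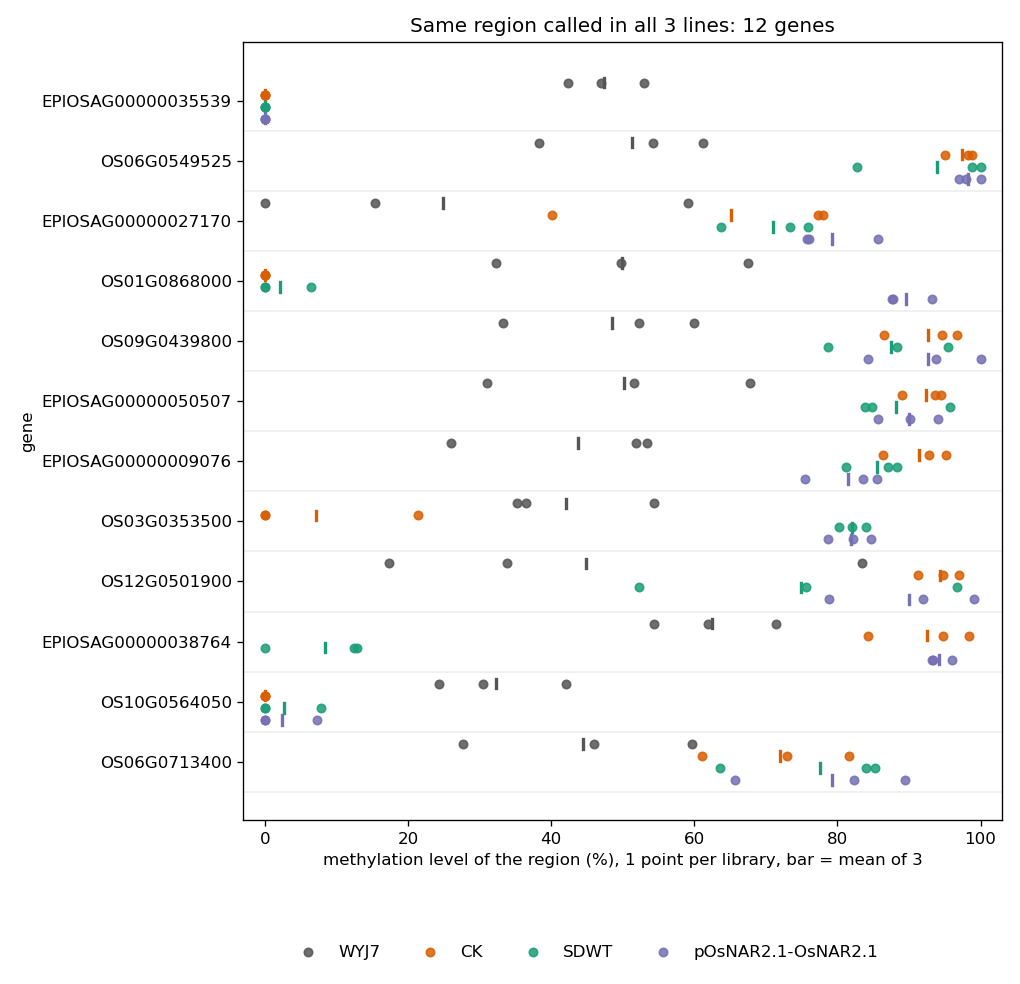
Methylation level (%) per library (x axis) at the region common to all 3 lines in 12 genes (y axis), with points for single libraries and a bar for the mean of 3. Most WYJ7 points lie between 20% and 70%, the hyper genes show CK, SDWT and the transgenic line together on the right, EPlOSAG00000035539 and OS10G0564050 show them at or near 0, and OS01G0868000, OS03G0353500 and EPlOSAG00000038764 show them on both sides.

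The remaining 14 identical regions had lines on both sides of WYJ7. The WYJ7 means had a median of 26.9%, and those of the lines 3.57% in CK, 7.73% in SDWT and 68.3% in the transgenic line. The range of the 3 line means was never below 42.7 points and reached 89.5.

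OS01G0868000 gave the largest range. In its upstream region (chr1:37591686-37591692, 4 CpGs over 7 bp) WYJ7 had 49.7%, 67.5% and 32.4%. CK was listed at 0 in all libraries, SDWT had 6.5%, 0% and 0%, and the transgenic line had 93.2%, 87.7% and 87.8%. The sister lines SDWT and the transgenic line were thus on opposite sides of all 3 WYJ7 libraries.

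EPlOSAG00000038764 also separated the sister lines, with SDWT as the odd line. Upstream of it (chr5:2017656-2017667) the levels were 61.9%, 54.4% and 71.3% in WYJ7 and 12.8%, 0% and 12.5% in SDWT. CK had 98.4%, 84.3% and 94.7% and the transgenic line had 93.2%, 96.1% and 93.3%. None of the libraries of the 3 lines fell within the range of WYJ7.

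In OS03G0353500 CK was the odd line. Its upstream region (chr3:13289179-13289210) had 36.5%, 35.2% and 54.4% in WYJ7 and 0%, 21.4% and 0% in CK. SDWT had 82.1%, 83.9% and 80.2% and the transgenic line 84.7%, 82.2% and 78.6%. The sister lines overlapped almost completely, at 82.1% ± 1.84 and 81.8% ± 3.06.

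Further patterns of this kind are given with genes chosen after their values were seen. Upstream of EPlOSAG00000009650 (chr11:8452729-8452735) WYJ7 had 12.5%, 9.76% and 8.33%, CK was listed at 0 throughout, SDWT had 39.2%, 41.1% and 48.5% and the transgenic line had 74%, 70.8% and 55.1%. From low to high, CK, WYJ7, SDWT and the transgenic line followed one another with no overlap. OS01G0583900 (chr1:22655488-22655513, upstream) was the only one of the 14 with SDWT alone above WYJ7: WYJ7 had 22.6%, 34.9% and 36.8%, SDWT 76.1%, 55.8% and 64.9%, CK 0%, 32% and 0%, and the transgenic line was listed at 0 throughout. In OS07G0573700 (chr7:23194063-23194085, upstream) the libraries of CK and the transgenic line were so uneven, with 41.7%, 0% and 33.1% in CK and 73%, 38.1% and 82.2% in the transgenic line, that both overlapped the 42.2%, 30.1% and 64.5% of WYJ7. A mean on one or the other side of WYJ7 is not in itself a separation.

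Overlapping but not identical regions with opposite directions were also found. In EPlOSAG00000038631 the upstream region of CK (chr5:26169552-26169567) lay within the wider call of the other lists. WYJ7 had 76.7%, 66.9% and 53.6% over the CK region, and CK had 0%, 15.8% and 0%. SDWT had 63.5%, 0% and 27.4% over the wider call and the transgenic line had 85.6%, 84.3% and 81.4%. All of the CK libraries were below and all of the transgenic-line libraries above WYJ7, while SDWT replicate 1 lay inside the WYJ7 range.

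In EPlOSAG00000039013 the place shared by SDWT and the transgenic line (chr11:5706317-5706324) had 24.4%, 44.8% and 64% in WYJ7. SDWT was listed at 0 in all libraries and the transgenic line had 82.5%, 79.7% and 92.7%. The CK region of this gene was elsewhere, across the edge of the upstream window (chr11:5707294-5707335). It had 37.5%, 26.7% and 18.8% in WYJ7 and 58.2%, 51.9% and 52.6% in CK. This gene thus counted as shared by 3 lines while the place was shared by 2.

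Exon or intron regions were found in 21 genes, and 7 of these had a place inside an exon or intron that all 3 lines shared. EPlOSAG00000050507 was described above, and the other 6 are named after their values were seen. OS01G0899425 was hypo in all lines, over an exon region of up to 158 bp (chr1:39121969-39122126 in the transgenic line). In CK the levels were 20.4%, 21.4% and 21.2%, against 59.5%, 53.5% and 72.5% in WYJ7 over the CK region. SDWT had 34.8%, 19.1% and 44.7% over a shorter region (chr1:39121969-39122021) and the transgenic line 45.9%, 31.1% and 29.97%. WYJ7 had 58.1%, 34.2% and 72.4% over the SDWT region, so SDWT replicates 1 and 3 overlapped it, while CK and the transgenic line did not overlap WYJ7.

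OS04G0122000 was hyper in all lines in an exon. WYJ7 had 17.9%, 15.2% and 13% and the transgenic line 71.2%, 53.8% and 57.9% over the longest call (chr4:1336021-1336095). SDWT had 53.1%, 45.3% and 49.2% and CK 44.3%, 0% and 47.2% in shorter calls at the same place. CK replicate 2 was listed at 0, below WYJ7, so the CK mean of 30.5% ± 26.5 rested on replicates 1 and 3.

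OS01G0254950 was hypo in the 3 lists (chr1:8479763-8479801 in CK and the transgenic line), and the separation held for CK only. CK had 13.3%, 0% and 0% and the transgenic line 0%, 0% and 34.5%, against 20.3%, 48.3% and 39.4% in WYJ7. In SDWT the levels were 59.2%, 34.7% and 0%, against 29.9%, 58.1% and 63% over its own region. Replicate 3 of the transgenic line and replicates 1 and 2 of SDWT lay inside the WYJ7 range.

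In OS09G0279400, the only intron place, the sister lines were far apart (chr9:5869358-5869365). WYJ7 had 0%, 41.5% and 17.9% and the transgenic line 84.1%, 80.8% and 81.5%, and both CK and SDWT were listed at 0 in all libraries. As WYJ7 replicate 1 was also listed at 0, CK and SDWT were not separated from WYJ7, whereas the transgenic line was above all other libraries.

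OS07G0491800 and OS07G0471300 had identical exon regions of mixed direction. For OS07G0491800 (chr7:18330613-18330624) WYJ7 had 0%, 20.3% and 8.65%, CK 25.2%, 56.5% and 46.4% and the transgenic line 40.8%, 24.2% and 34.6%, with SDWT listed at 0. For OS07G0471300 (chr7:16898511-16898521) WYJ7 had 53.1%, 20.6% and 38.5%, CK 0%, 67.7% and 8.82%, SDWT 0%, 21.1% and 0% and the transgenic line 89.3%, 50.5% and 86.5%. None of the lines was separated from WYJ7 in OS07G0471300, and CK replicate 2 was above all WYJ7 libraries although the CK mean was below theirs.

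**Figure D5:**
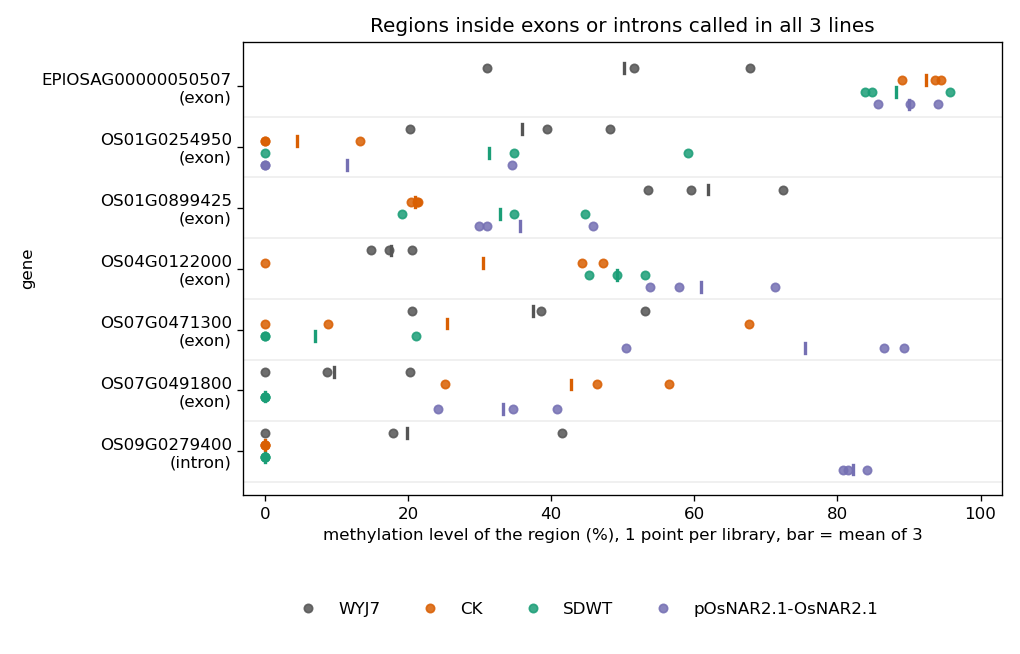
Methylation level (%) per library (x axis) at the 7 exon or intron regions called in all 3 lines (y axis, gene and feature), with points for single libraries and a bar for the mean of 3; WYJ7 points are those of the CK region. EPlOSAG00000050507 shows 3 lines above WYJ7, and OS09G0279400 shows the transgenic line alone above 80%. OS01G0899425 shows 3 lines below the plotted WYJ7 points, but SDWT overlapped WYJ7 over its own shorter region.

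Of the 6 genes with 5 regions, 4 had a single direction and are given first. EPlOSAG00000033768 had 5 upstream regions, all hyper. The one shared by all lines (chr2:24107126-24107144, 6 CpGs) had 70.6%, 47.1% and 55.3% in WYJ7 and 77.6%, 97.5% and 74.3% in CK. SDWT had 91%, 74.9% and 77% and the transgenic line 82.3%, 88.6% and 87.5% there. CK had a further region on each side, from 79.1% ± 9.25 in WYJ7 to 98.5% ± 1.47 in CK at chr2:24106418-24106442, and from a listed 0 to 47.5%, 0% and 55% at chr2:24107191-24107231.

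EPlOSAG00000052824 had 5 upstream regions, all hypo, in 2 neighbouring places. At the second place (chr1:33506304-33506379, 9 CpGs) CK and the transgenic line were almost equal, with 12.1%, 24.3% and 23.2% and 18.9%, 19.7% and 19.9%, and both were below WYJ7 (51.5%, 34.6% and 38.8%). The first place was called in all lines with different ends. CK was at 43.7% ± 21.9 (chr1:33506212-33506264), SDWT at 75.4% ± 3.96 (chr1:33506204-33506239) and the transgenic line at 72% ± 5.35 (chr1:33506204-33506264), with WYJ7 means of 85.2%, 88.0% and 86.7% over these calls.

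OS05G0203900 was hyper in all 5 regions, with CK apart from the sister lines in place. SDWT and the transgenic line shared the region chr5:6477408-6477435, where WYJ7 had 59.5%, 82.7% and 76.3%, SDWT 98.9%, 91.8% and 93.8% and the transgenic line 95.7%, 96% and 94.9%. They also shared a second one just after it (chr5:6477458-6477472 in SDWT), at 89.5% ± 8.0 in SDWT against 45.1% ± 31.8 in WYJ7. The CK region (chr5:6477073-6477085) had 32%, 35.1% and 26.4% in WYJ7 and 72.3%, 34.9% and 77% in CK. CK replicate 2 lay inside the WYJ7 range there.

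OS05G0375400 was hyper in its 5 regions but on uneven WYJ7 levels. CK and the transgenic line shared an upstream region (chr5:18111400-18111418), where WYJ7 had 0%, 0% and 47.4%, CK 55%, 60.9% and 43.1% and the transgenic line 23.9%, 74.7% and 73.2%. WYJ7 replicate 3 was above CK replicate 3 and replicate 1 of the transgenic line. In the neighbouring SDWT region (chr5:18111443-18111484) the levels were 50.5%, 0% and 65.2% in WYJ7 and 53.4%, 27.4% and 64.5% in SDWT, and these overlapped. The exon region of the transgenic line (chr5:18110805-18110824) had 33.9%, 16.3% and 34.4% in WYJ7 and 50.2%, 74.4% and 73.1% in the line, with no overlap.

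EPlOSAG00000016208 was among these 6 genes too, but had fewer CpGs than the 5 named for their regions, and is named here after its values were seen. At one upstream place (chr5:8774652-8774690) WYJ7 had 12.5%, 39.9% and 43.6%, CK was listed at 0 in all libraries, and the transgenic line was hyper with 76.7%, 40.9% and 70.6%. Replicate 2 of the transgenic line was inside the WYJ7 range there. SDWT was hyper at a second place (chr5:8775929-8775959), with 13.6%, 40.5% and 35.7% against 0%, 23.2% and 11.6% in WYJ7, and these overlapped. OS02G0216300, also with 5 regions, had both directions and is given with the genes whose lines did not meet.

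Among the genes with no place common to all 3 lines, 4 were named for large differences. In the upstream window of OS05G0412500 SDWT and the transgenic line went in opposite directions at one place. WYJ7 had 31.1%, 70.1% and 68.6% over the SDWT region (chr5:20181056-20181067), SDWT had 85.6%, 91.5% and 90.05%, and the transgenic line had 0%, 22.8% and 0% over its own call (chr5:20181056-20181087). Over the transgenic-line call WYJ7 had 27%, 72.2% and 63.9%, and its replicate 1 was close to the highest library of the transgenic line. CK was hypo at 2 other upstream places of this gene, with 9.62% ± 16.7 against 44.4% ± 4.41 (chr5:20180314-20180349) and 37.7% ± 23.1 against 73.5% ± 5.77 (chr5:20180465-20180488).

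In OS10G0406701 the exon region shared by CK and SDWT (chr10:13910563-13910569) had 27.8%, 70.9% and 71.5% in WYJ7. CK had 97.2%, 96.7% and 97.9% and SDWT 92.5%, 89.3% and 88%, so even the highest WYJ7 library was below them all. The region of the transgenic line was elsewhere in the exon (chr10:13911610-13911614), at 26.4% ± 12.7 in WYJ7 and 61.1% ± 4.71 in the line. A second CK region (chr10:13911314-13911327) went the other way, from 10.6% ± 3.55 in WYJ7 to a listed 0.

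OS07G0250501 was hyper in all lines, with SDWT and the transgenic line at one upstream place (chr7:8359936-8359954). WYJ7 had 29.3%, 51.7% and 27.5% there, SDWT 78.8%, 78.4% and 75.1% and the transgenic line 74.8%, 83.3% and 85%. The CK region (chr7:8360543-8360594) was listed at 0 in WYJ7 and had 48.3%, 20.03% and 37.5% in CK. A second region of the transgenic line (chr7:8359461-8359487) was at 50.9% ± 9.45, against 15.3% ± 3.49 in WYJ7.

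EPlOSAG00000019251 was hypo upstream in CK and the transgenic line and hyper in an exon in SDWT. At the upstream place (chr5:4275025-4275035) WYJ7 had 74.1%, 58.6% and 56.8%, CK 47.7%, 0% and 45.6% and the transgenic line 32.8%, 29.3% and 23.5%. The exon region (chr5:4275392-4275413) had 3.57%, 0% and 0% in WYJ7 and 11%, 67.2% and 25.6% in SDWT. Both lines upstream were below WYJ7 in every library, and the SDWT libraries were all above WYJ7 but spread widely.

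The 3 genes named for the most CpGs in their regions are given next. OS01G0828100 was hyper over an upstream stretch of 101 bp (chr1:35429972-35430072, 28 CpGs in the transgenic-line list). WYJ7 had 74.5%, 58.5% and 72.5%, SDWT 95.3%, 91.6% and 87.5% and the transgenic line 94.5%, 92.2% and 90.3%. CK had 90.2%, 78.9% and 97.7% over most of the same stretch. All line libraries were above all of WYJ7.

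EPlOSAG00000045543 was hypo over the longest region of the 102 genes, 527 bp with 74 CpGs in CK (chr12:20619197-20619723). WYJ7 had 27.4%, 38.8% and 35.7% and CK 5.92%, 3.54% and 21%. The SDWT region (chr12:20619561-20619612), in an exon, lay inside this stretch and had 8.84%, 13.3% and 14.6%, against 31.6%, 44.2% and 46.8% in WYJ7. CK and the transgenic line also shared a neighbouring region (chr12:20618750-20619057, 20 CpGs), where WYJ7 was at 30.2% ± 1.11, CK at 9.12% ± 4.56 and the transgenic line at 9.38% ± 3.5. Every line was below WYJ7 with no overlap at these places.

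EPlOSAG00000007914 was hypo over 118 bp (chr7:17654469-17654586, 15 CpGs), with 0 listed in every line library. WYJ7 had 15.1%, 45.6% and 5.65% over this call, which was slightly shorter in SDWT. Replicate 2 of WYJ7 was far above replicates 1 and 3.

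In 5 genes no regions of different lines met. OS02G0216300 had regions in introns, exons and upstream, and the nearest regions of different lines were 366 bp apart. In its exon SDWT was at 22% ± 5.25 (chr2:6512509-6512517; WYJ7 59.7% ± 2.27) and the transgenic line was at 82.8% ± 3.38 (chr2:6512883-6512889; WYJ7 57.9% ± 7.33), in opposite directions. CK had an intron region at 23.2% ± 1.25 against 64% ± 12.1 and an upstream region at 68.4% ± 27.5 against 92.7% ± 4.38. An intron region of the transgenic line (chr2:6514676-6514747) was at 43.2% ± 13.3 against 69.4% ± 3.35.

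The other 4 are named after their values were seen. In OS03G0777600 the nearest regions were 126 bp apart, in OS04G0625000 256 bp, in OS06G0351500 1817 bp and in OS02G0511400 2478 bp. In OS03G0777600 CK had 20.8%, 58.7% and 0% (chr3:32248362-32248370), against 92.9%, 88.8% and 87% in WYJ7. Its SDWT region (chr3:32248517-32248521) was hyper, from 36.2% ± 11.3 to 63% ± 16.6, and the region of the transgenic line (chr3:32248647-32248716) was listed at 0 in WYJ7 and had 26.9%, 3.23% and 18.4% in the line. The CK libraries again differed among themselves. OS04G0625000 was hypo in CK (26.7% ± 26.8 against 71.6% ± 1.5), listed at 0 in SDWT (33.7% ± 4.34 in WYJ7) and hyper in the transgenic line (92.5% ± 3.13 against 66.9% ± 5.8). In OS02G0511400 the intron regions were hypo in CK, with 31.6%, 89.2% and 52.5% against 92.4%, 81.8% and 100%, and were listed at 0 in WYJ7 for both SDWT (0%, 47.1% and 53%) and the transgenic line (26.4%, 0% and 30.9%). Some libraries of both lines were listed at 0 there as well.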

How the data were processed

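The data were 12 WGBS libraries in 4 groups of 3. Another 3 samples, measured by MeDIP, were not analysed here. According to the methods and the submitters' processing notes, the authors aligned reads to IRGSP-1.0 with Bismark 0.9.0, and methylKit with eDMR gave the DMRs of a line relative to WYJ7. The deposited methylation level of a region is a percent per library, not normalized between libraries. Region width and number of CpGs are other deposited values. The lists also hold the authors' own difference, p-value, q-value, direction label and number of differentially methylated cytosines, which were not used: direction was calculated from the mean levels of 3 libraries. Depth per region is not known, so no interval of a level could be given, and SDs measure only the spread between libraries, which may be technical.

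Gene IDs were compared after the feature label was removed. Regions at the same place shared at least 1 bp. As the gene rule used these contrasts, no test was run. The genes, lists and counts were chosen with earlier results of these data known. By rule, 26 genes were named: 12 with the largest smallest difference at a common place, 5 with most regions, 4 with large differences but no place common to all 3 lines, 4 with opposite directions at a place, and 3 with most CpGs, with overlaps. A further part of the rule, on product keywords, could not be applied, as 0 of the 102 IDs matched the RefSeq gene table (assembly ASM3414082v1). Alternatives changed the limits on CpGs, difference, context, feature and overlap and left out each library. Calculations ran in Python 3.11.15 (matplotlib 3.10.9, pandas 2.3.3, numpy 2.4.6), and the functions were tested on simulated data.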

Additional observations from a re-analysis of the deposited data

Results flagged for a closer look

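At 24 of the 102 genes, every library of one line was above the WYJ7 mean and every library of another line was below it at the same place, which gave 37 pairs of lines. The value given is the difference of the first line from WYJ7 minus that of the second, in percentage points. None of these gaps was tested, and all share the WYJ7 libraries. The regions compared had identical ends in 28 of the 37 pairs, one of the lines was listed at 0 in all libraries in 20, and both lines had libraries apart from those of WYJ7 in 24. The last count has no share over all listed regions beside it. Pairs were taken because all libraries of each line lay on one side of the WYJ7 mean, which favours libraries apart, so the count is a description.

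Of these genes, 6 are among those named by the rule for named genes, some of them chosen for this pattern. For OS01G0868000 (upstream) the gap was -89.5 for CK minus *pOsNAR2.1-OsNAR2.1* and -87.4 for SDWT minus *pOsNAR2.1-OsNAR2.1*. For EPlOSAG00000038764 (upstream) it was 84.0 for CK minus SDWT and -85.8 for SDWT minus *pOsNAR2.1-OsNAR2.1*. OS03G0353500 (upstream) had -74.9 for CK minus SDWT and -74.7 for CK minus *pOsNAR2.1-OsNAR2.1*. EPlOSAG00000038631 had -87.9 for CK minus *pOsNAR2.1-OsNAR2.1*, over calls of unlike length. EPlOSAG00000039013 had -85.0 for SDWT minus *pOsNAR2.1-OsNAR2.1*, and OS05G0412500 had 79.2 for SDWT minus *pOsNAR2.1-OsNAR2.1*, the latter over calls of unlike length.

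The other genes were outside that rule and are given by the lines in which they were opposed. CK and *pOsNAR2.1-OsNAR2.1* were opposed in 12 pairs. Beside those above, the gap of CK minus *pOsNAR2.1-OsNAR2.1* was -66.6 at EPlOSAG00000009650, -62.7 at EPlOSAG00000016208, -53.6 at EPlOSAG00000019023, -66.2 at OS02G0599700, -58.2 at OS02G0820900, -58.0 at OS04G0528000, -65.0 at OS07G0166300, -70.0 at OS07G0249001 and -82.1 at OS09G0279400. In each of these CK was the lower line.

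CK and SDWT were opposed in 10 pairs. The gap of CK minus SDWT was -42.9 at EPlOSAG00000009650, -32.4 at EPlOSAG00000019023, -78.5 at OS04G0528000 and -51.4 at OS07G0573700, with CK lower. It was 67.8 at OS01G0744550, 74.8 at OS04G0460900, 67.5 at OS07G0240600 and 42.7 at OS07G0491800, with SDWT lower.

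SDWT and *pOsNAR2.1-OsNAR2.1* were opposed in 15 pairs. The gap of SDWT minus *pOsNAR2.1-OsNAR2.1* was -43.5 at EPlOSAG00000032483, -44.3 at OS01G0648600, -77.9 at OS01G0744550, -58.2 at OS02G0820900, -61.6 at OS07G0166300, -69.6 at OS07G0240600, -70.0 at OS07G0249001, -68.4 at OS07G0471300, -33.2 at OS07G0491800 and -82.1 at OS09G0279400, with SDWT lower. At OS01G0583900 it was 65.6, with *pOsNAR2.1-OsNAR2.1* lower.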

How the results depend on the processing

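The number of genes shared by all 3 lines depended strongly on the limits set. With at least 5 CpGs per region, 11 genes were left in place of 102, of which 8 had one direction, 9 a place common to 3 lines and 11 a place common to at least 2 lines, and 81.8% of 11 regions of the transgenic line were hyper. With a difference of at least 30 points the counts were 14, 10, 9 and 14, and the hyper share was 60% of 15 regions in CK and 85.7% of 14 in SDWT. With exon and intron regions only they were 14, 6, 7 and 12. With mean levels at least 20 points apart they were 49, 29, 33 and 47. Leaving out each library in turn under that same limit gave 39 to 53 genes, 21 to 31 with one direction, 25 to 37 with a common place of 3 lines and 37 to 50 of at least 2 lines. The hyper share then ran from 37.2% to 53.1% in CK (highest without WYJ7 replicate 1), from 49.1% to 58.2% in SDWT and from 69.6% to 74.6% in the transgenic line. Without CK replicate 2 there were 52 genes and without replicate 2 of the transgenic line 53, above the 49 with all libraries, and the cause of these shifts was not tested. Regions in CpG context only and overlap of at least 50% of the shorter region gave counts close to those reported. With regions within 200 bp taken as the same place, 68 genes had a common place of 3 lines, against 59. For at least 2 lines the count was 98, against 97.

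Alternatives chosen after seeing the data were also run. Without regions where a group was listed at 0 in all 3 libraries there were 60 genes, 36 with a common place of 3 lines and 58 of at least 2 lines, and the hyper share was 53.8% in CK, 71% in SDWT and 83.8% in the transgenic line. With gene and feature taken as one name there were 95 genes. The limit on the q-value was not run, as that column is the authors' own test. Keeping only regions with a single gene ID changed no count (102 genes). No paired analysis was possible because the results come from no test and nothing in the labels pairs the libraries.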
